A study of Saccharomyces cerevisiae with 22 samples.

Results

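RNA-Seq of total lysates was compared here in 4 libraries out of the 22 samples of the series, to ask what the loss of Atg2 changes in the whole-cell transcriptome of rapamycin-treated yeast. The members are the 2 libraries labelled *rny1*Δ (rny1Δ::natNT2) and the 2 labelled *rny1*Δ *atg2*Δ (rny1Δ::natNT2, atg2Δ::kanMX6), chosen by their labels alone, and all 4 come from cells of an X2180 haploid, X2180-1a by label and X2180-1B in the study's strain list, treated for 3 h with rapamycin at 0.2 µM in YPD. Both groups lack *RNY1* by label, so that the only labelled difference between them is *ATG2*, and neither is a wild type. The study describes its replicates as independent biological replicates. Beside them stand 2 libraries of the same strains growing in YPD without rapamycin, 1 per strain.

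Rapamycin inhibits TORC1, the kinase complex that couples growth to nutrients. Its inhibition represses ribosome synthesis, derepresses genes for the use of poor nitrogen sources and stress genes, and switches on autophagy, in which double-membrane autophagosomes carry cytoplasm into the vacuole. Atg2 is a lipid-transfer protein required for the autophagosome membrane to form, and a cell without it delivers no bulk cytoplasm to the vacuole. Rny1 is the RNase of the vacuole lumen. Nutrients released in the vacuole, such as amino acids and iron, return to the cytoplasm, and yeast cells read the supply of amino acids, iron, phosphate and inositol through separate transcriptional regulons, among them those of Gcn4, Aft1, Pho4 and Ino2-Ino4.

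The 4 libraries held between 9156333 and 17234390 counts on genes, and 3 counts corresponded to 0.174 to 0.328 CPM, that is, counts scaled to a common library total. Levels are printed as CPM after further scaling by the trimmed mean of M-values (TMM), and differences as log2 of *rny1*Δ *atg2*Δ over *rny1*Δ, so that positive values are higher without Atg2. CPM are shares of a library, and a change in the amount of mRNA per cell, or in all mRNAs alike, cannot be seen in them. The library kit does not mark strand, so reads of a gene and of its antisense partner cannot be told apart.

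The deleted genes were read first. *ATG2* (YNL242W, chromosome XIV, positions 191324 to 196102 of the R64 assembly) had 131 and 166 CPM in *rny1*Δ and 4.68 and 4.47 CPM in *rny1*Δ *atg2*Δ, from 1314 and 1448 counts against 79 and 52. The log2 difference was -5.01 ± 0.16 (SE, n = 2 libraries per strain), as the labels require. *RNY1*, by contrast, was not absent in any library. Its levels were 25.5 and 37.4 CPM in *rny1*Δ and 24.8 and 24.3 CPM in *rny1*Δ *atg2*Δ, beside 73.9 CPM in the wild-type library of the same treatment time, which was counted by another procedure. In growing cells *RNY1* had 17.5 CPM in *rny1*Δ and 25.3 CPM in *rny1*Δ *atg2*Δ. The growing wild-type libraries, counted by that other procedure, had 5.01 and 5.77 CPM. The deletion of *RNY1* is therefore taken from the labels. The direct neighbours of the deleted genes were not called, with log2 differences of -0.14 for *SLA2* and 0.17 for *ZWF1* beside *ATG2*, and of 0.22 for *TFB2* and 0.65 for *SPC29* beside *RNY1*. The labels also give a strain of mating type a, whereas all 4 libraries had the 5 α-specific genes at 20.5 to 2306 CPM and the 7 a-specific genes at 0 to 37.7 CPM, which is the pattern of an α cell. The study's strain list gives X2180-1B, of mating type α, for both mutants. This was alike in both strains, with none of these 12 genes called as different.

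Of 5702 protein-coding genes tested, 20 (0.351%) were at least 2-fold higher and 10 (0.175%) at least 2-fold lower in *rny1*Δ *atg2*Δ, at an adjusted p-value under 0.01 (edgeR quasi-likelihood test with Benjamini-Hochberg adjustment). Together these were 0.526% of the genes. At that p-value and any fold, 132 genes (2.31%) were higher and 62 (1.09%) lower, 3.4% in both directions, with median log2 differences of 0.68 and -0.68. An mRNA is called below when it passed this second rule. The strains were close as a whole. The quartiles over all genes lay at -0.16 and 0.17 on the log2 scale, and ranks of gene levels correlated at 0.986 to 0.991 between strains, against 0.993 and 0.996 between replicates. Among 5197 genes with at least 5 CPM in every library, the log2 strain difference, taken between groups of 2 libraries, had an SD of 0.26. Replicate 2 minus replicate 1, taken between single libraries, had an SD of 0.23 in *rny1*Δ and 0.17 in *rny1*Δ *atg2*Δ. A difference of single libraries carries more noise than one of groups, so these SDs cannot be compared directly. Counts of calls, and also which mRNAs were called, depended on single libraries. At any fold there were 46 higher and 32 lower without replicate 1 of *rny1*Δ *atg2*Δ, 209 and 173 without replicate 2 of *rny1*Δ, and 110 and 106 without replicate 1 of *rny1*Δ. At 2-fold there were 33 higher and 20 lower without replicate 1 of *rny1*Δ, 20 and 5 without replicate 2 of *rny1*Δ, and 31 and 14 without replicate 2 of *rny1*Δ *atg2*Δ.

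**Figure D1:**
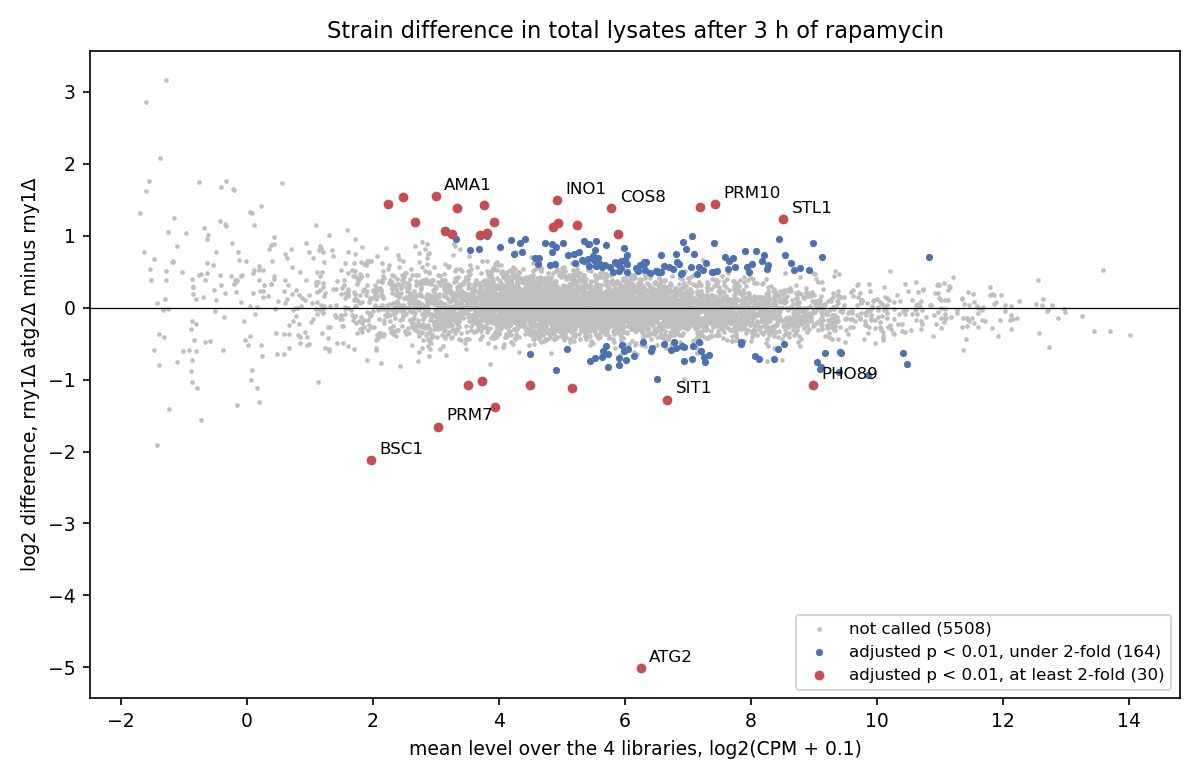
Log2 difference between strains after rapamycin (vertical, *rny1*Δ *atg2*Δ minus *rny1*Δ) against the mean level over the 4 libraries as log2(CPM + 0.1) (horizontal), 1 point per gene. Red points are the 30 genes called at 2-fold or more, blue points the 164 called below 2-fold, and *ATG2* itself lies lowest at -5.01.

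*INO1*, *STL1*, *PDC6* and *GID10* were among the 15 called mRNAs with the largest increase and a mean of at least 5 CPM in the double mutant. *INO1*, which encodes the enzyme that makes inositol phosphate from glucose 6-phosphate and so opens inositol synthesis, had 15.7 and 16.01 CPM in *rny1*Δ and 48.7 and 40.3 CPM in *rny1*Δ *atg2*Δ. The log2 difference was 1.49 ± 0.14 (SE, adjusted p = 6.29e-06). *STL1*, the glycerol importer of the plasma membrane, was the most abundant of these 15, at 229 and 209 CPM against 557 and 474 CPM (log2 difference 1.23 ± 0.12, SE, adjusted p = 8.18e-06). *GPD1* and *GPP2*, the enzymes of glycerol synthesis, were higher as well by 0.70 and 0.64, though neither was called without replicate 1 of *rny1*Δ *atg2*Δ (0.61 and 0.64). *GPD1* lost its call also without replicate 2 of *rny1*Δ *atg2*Δ (0.78). *PDC6*, a minor pyruvate decarboxylase, had 8.97 and 5.60 CPM against 20.9 and 18.7 CPM (1.43 ± 0.20). *GID10*, a substrate receptor of the GID ubiquitin ligase, had 25.8 and 21.0 CPM against 54.3 and 49.8 CPM (1.15 ± 0.13).

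Among the 15 largest increases were *AMA1*, *REC102* and *SPS22*, which passed the minimum of 5 CPM only in the double mutant. *AMA1*, the meiosis-specific activator of the anaphase-promoting complex, had 3.59 and 4.57 CPM in *rny1*Δ and 13.4 and 10.1 CPM in *rny1*Δ *atg2*Δ. *REC102*, needed for the breaks that start meiotic recombination, had 2.99 and 2.63 CPM against 8.52 and 7.91 CPM. *SPS22*, which acts in spore wall assembly, had 2.89 and 2.06 CPM against 7.16 and 6.36 CPM. Their log2 differences were 1.54, 1.54 and 1.44, and both libraries of the double mutant lay above both of *rny1*Δ, as for all called mRNAs and for 28.7% of all genes. The call of *SPS22* was lost without replicate 1 of *rny1*Δ *atg2*Δ (adjusted p = 0.0151). In the list of 27 tested genes of meiosis and sporulation, which does not hold these 3, only the meiotic kinase gene *IME2* was called, a share of 3.70% beside 2.31% of all genes (40.0 and 33.6 against 72.8 and 62.1 CPM, 0.87 ± 0.13), 18 lay above 0 and 9 below, and the median was 0.22 beside 0.00 for all genes. *IME1*, the master regulator of entry into meiosis, which was singled out after its values were seen, had 6.48 and 9.26 against 4.44 and 7.31 CPM and overlapped between strains.

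Some genes of mating were higher as well. Of 22 tested genes that haploid cells express for pheromone signalling and fusion, 3 were higher and none lower, with a median of 0.18. That was 13.6% of the list higher, beside 2.31% of all genes tested. *FUS2*, needed for cell fusion, had 9.17 and 9.15 CPM against 19.4 and 18.3 CPM (1.04 ± 0.17). *FUS1*, another fusion protein, had 30.3 and 26.0 CPM against 57.5 and 49.2 CPM (0.92 ± 0.13), and *PRM1*, a membrane protein of the fusion step, had 37.5 and 33.3 CPM against 58.3 and 54.3 CPM (0.67 ± 0.12). The other 19 members were not called. Leaving out 1 library at a time gave 2 to 4 members called higher, and 1 called lower without replicate 2 of *rny1*Δ.

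Among the remaining large increases, *PRM10*, a predicted membrane protein, had 113 and 73.6 CPM against 264 and 243 CPM (1.44 ± 0.15), and *YJL107C*, of no known function, had 91.0 and 70.0 CPM against 224 and 201 CPM (1.39 ± 0.12). The annotations of these 2 genes on chromosome X overlap only at their ends (positions 217705 to 218856 and 218853 to 220016). Whether their values are independent was not tested. *COS8*, a member of the subtelomeric COS family on chromosome VIII (positions 6401 to 7546), had 28.7 and 32.6 CPM against 79.7 and 79.9 CPM (1.38 ± 0.12). The COS genes are near-identical copies of each other and only uniquely aligned reads were counted, so the assignment of these reads to *COS8* is uncertain. *FHN1*, a membrane protein of the eisosome family, had 3.89 and 3.77 CPM against 10.001 and 7.31 CPM (1.19 ± 0.25), and its call was lost without replicate 1 of *rny1*Δ (1.22), without replicate 1 of *rny1*Δ *atg2*Δ (0.92) and in DESeq2's Wald test (1.17). It passed the minimum of 5 CPM only in the double mutant. The last 4 of the 15, *YGR035C*, *YDR249C*, *YMR320W* and *YOR186W*, have no known function and were higher by 1.39, 1.20, 1.18 and 1.12.

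**Figure D2:**
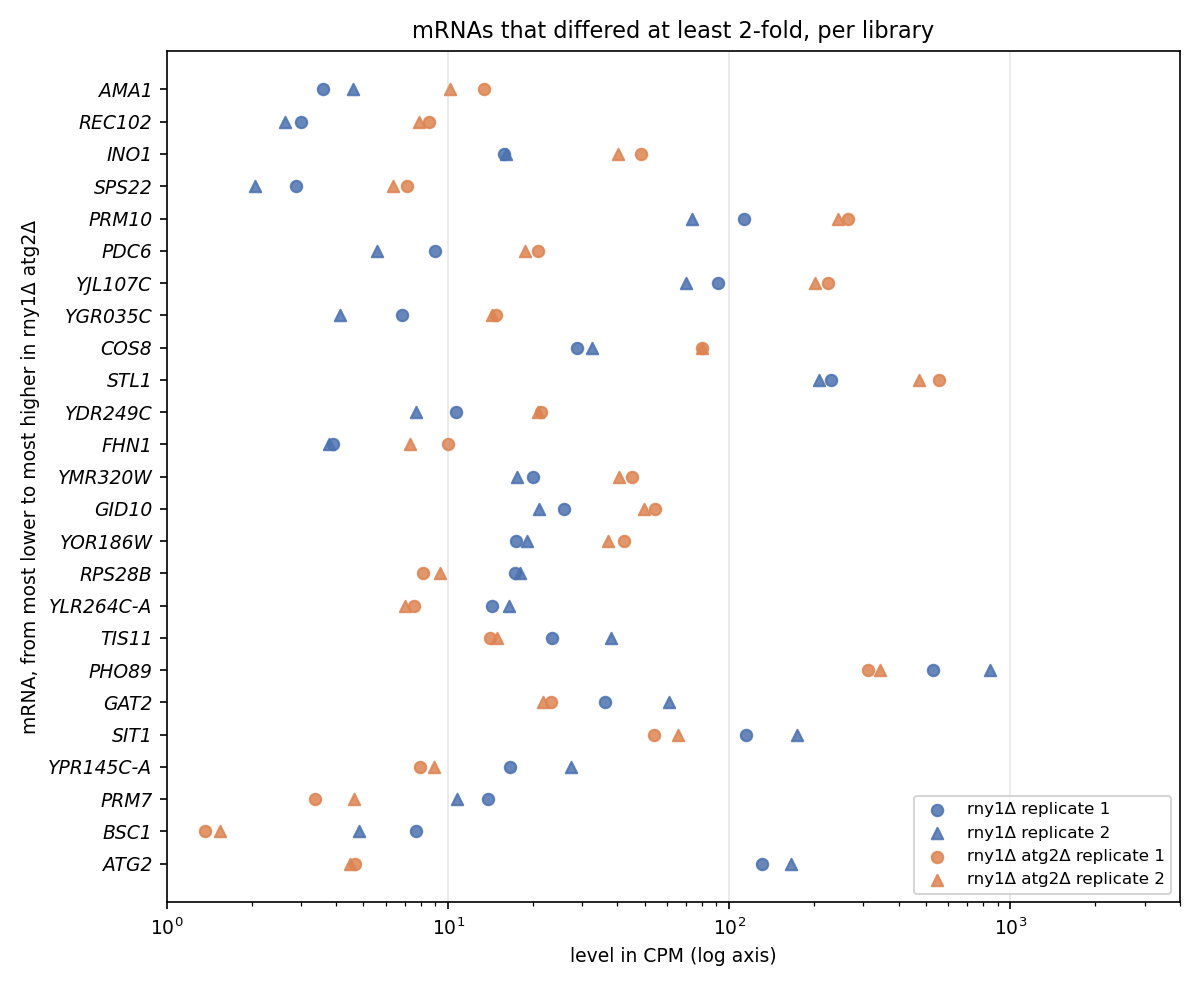
Level in CPM (horizontal, log axis) of the 15 called mRNAs with the largest increase and all 10 called mRNAs with a decrease of at least 2-fold (vertical), 1 point per library. A mean of at least 5 CPM in the higher strain was required. Blue points are *rny1*Δ, orange points *rny1*Δ *atg2*Δ, circles replicate 1 and triangles replicate 2. Groups that do not overlap were a condition for being shown. For *SIT1*, *GAT2*, *PHO89*, *TIS11* and *YPR145C-A* the blue triangle lies well to the right of the blue circle.

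On the other side, after *ATG2* the largest called decreases were in a pair of neighbours on chromosome IV. *BSC1* (positions 384601 to 385587), which resembles the cell-surface flocculin Flo11, had 7.67 and 4.80 CPM in *rny1*Δ and 1.36 and 1.55 CPM in *rny1*Δ *atg2*Δ (-2.12 ± 0.32, adjusted p = 0.000573). *PRM7* (positions 381985 to 384081), a pheromone-regulated gene 519 bases away and on the same strand, had 13.8 and 10.7 CPM against 3.37 and 4.64 CPM (-1.65 ± 0.23, adjusted p = 0.000317). The means of this pair passed the minimum of 5 CPM only in *rny1*Δ. Both were lower in both libraries of the double mutant, as were all 62 lower calls and 24.2% of all genes. *BSC1* had only 18 to 77 counts a library, and its call was lost without replicate 1 of *rny1*Δ (-1.73). A second pair of neighbours was *RPS28B*, a protein of the small ribosomal subunit (chromosome XII, positions 673131 to 673334), at 17.2 and 18.1 CPM against 8.17 and 9.37 CPM, and the uncharacterized *YLR264C-A*, 493 bases away, at 14.3 and 16.5 CPM against 7.57 and 7.05 CPM. They were lower by log2 values of -1.02 and -1.07. The call of *RPS28B* was lost without replicate 1 of *rny1*Δ *atg2*Δ (adjusted p = 0.0136). *RPS28B* has a near-identical copy, *RPS28A*, which had 45.3 and 43.3 against 33.8 and 40.7 CPM and was not called. *YPR145C-A*, also uncharacterized, had 16.6 and 27.3 against 7.93 and 8.94 CPM, and its neighbour *ASN1*, asparagine synthetase, was lower too (760 and 575 against 326 and 469 CPM, -0.75 ± 0.16). The call of *ASN1* was lost in DESeq2's Wald test, and without replicate 1 of *rny1*Δ (-0.54) or of *rny1*Δ *atg2*Δ (-0.52).

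Genes of the iron regulon supplied 6 of the 62 lower mRNAs. The iron regulon is switched on by the factors Aft1 and Aft2 when iron is short. Of its 33 members tested, 6 were lower and 1 higher, with a median of -0.15 and 24 members below 0. That was 18.2% lower and 3.03% higher, beside 1.09% and 2.31% of all genes. Of all 5702 genes tested, 2849 lay below 0. *SIT1*, a transporter of iron-siderophore complexes, had 115 and 174 CPM in *rny1*Δ and 54.1 and 65.5 CPM in *rny1*Δ *atg2*Δ (-1.28 ± 0.15, adjusted p = 7.79e-05). *TIS11*, whose protein binds and destabilizes mRNAs of iron-using proteins when iron is short, had 23.4 and 37.8 CPM against 14.1 and 14.96 CPM (-1.07 ± 0.18, adjusted p = 0.00132). The strains did not overlap, as for all called mRNAs and, in this direction, for 24.2% of all genes. Both mRNAs were highest in replicate 2 of *rny1*Δ. Without that library they were lower by -0.96 and -0.69 and still called.

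The other lower members of the regulon differed less between the *rny1*Δ replicates. *FIT2*, a cell wall mannoprotein that retains siderophores, had 35.6 and 41.9 CPM against 21.1 and 21.2 CPM (-0.87 ± 0.13). *FET3*, the multicopper oxidase of high-affinity iron uptake, had 330 and 328 CPM against 190 and 225 CPM (-0.67 ± 0.11). *FIT3* had 128 and 127 CPM against 96.7 and 72.9 CPM and *FTH1*, which exports iron from the vacuole, 72.2 and 86.4 CPM against 49.4 and 57.3 CPM. All 4 were lower in both double mutant libraries, as were 24.2% of all genes tested. *FIT1*, another mannoprotein of the same family, went the other way, from 17.2 and 13.4 CPM to 29.8 and 22.3 CPM (0.77 ± 0.17). *FTR1*, the permease that works with Fet3, the siderophore transporter gene *ARN1* and the low-affinity transporter gene *FET4* were singled out after their values were seen and were not called (-0.26, -0.12 and -0.13). Leaving out 1 library at a time gave 4 to 6 members called lower. The copper transporter gene *CTR1*, outside the list and chosen in the same way, was lower by -0.57 ± 0.11.

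**Figure D3:**
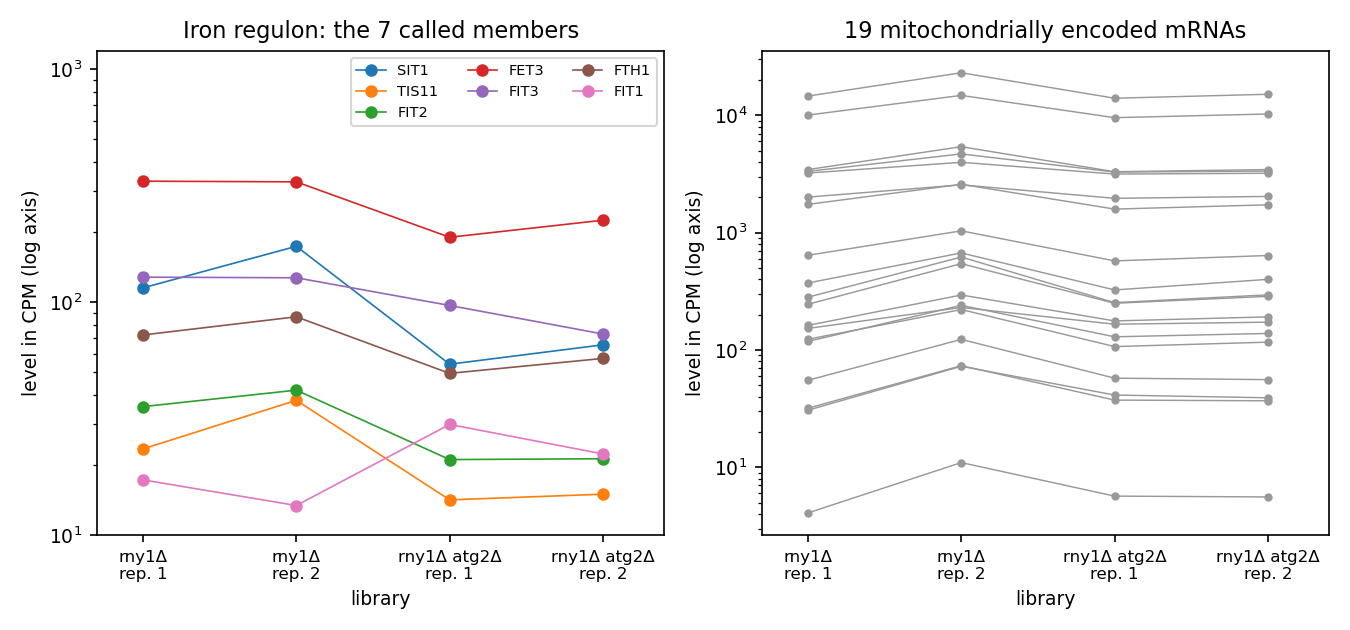
Level in CPM (vertical, log axes) in each of the 4 rapamycin libraries (horizontal) of the 7 called members of the iron regulon (left) and of the 19 mitochondrially encoded mRNAs (right). Lines join the values of 1 mRNA and imply no order of the libraries. Of the iron mRNAs 6 are lower in both *rny1*Δ *atg2*Δ libraries and *FIT1* is higher, while the mitochondrial mRNAs stand out in replicate 2 of *rny1*Δ alone.

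Other transporters and nutrient genes were lower in *rny1*Δ *atg2*Δ. *PHO89*, the sodium-phosphate cotransporter, had 531 and 847 CPM against 312 and 344 CPM (-1.08 ± 0.16, adjusted p = 0.000566), and its call was lost in DESeq2's Wald test. It was the only one of 19 tested phosphate regulon members to be lower, and *CTF19*, a kinetochore gene that the list holds as a Pho4 target, was higher by 0.61. *HXT2*, a high-affinity glucose transporter, had 1216 and 1229 CPM against 548 and 730 CPM (-0.94 ± 0.14) and was the single call among 22 genes of hexose transport and glucose sensing, lost without replicate 1 of *rny1*Δ *atg2*Δ (-0.75). *GAT2*, a GATA-type zinc finger protein, had 36.3 and 61.3 CPM against 23.1 and 21.8 CPM (-1.11 ± 0.18). Both *PHO89* and *GAT2* were highest in replicate 2 of *rny1*Δ, and without it they were lower by -0.70 and -0.69 and still called. *TSA1*, the major peroxiredoxin, had 829 and 830 CPM against 535 and 550 CPM (-0.62 ± 0.11) and was the single call among 16 genes of the zinc regulon, lost without either library of *rny1*Δ *atg2*Δ (-0.60 and -0.63).

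Some genes of respiration and fatty acid use were lower, but unevenly between the *rny1*Δ libraries. *HAP4*, the activating subunit of the factor that drives respiratory genes, chosen after its values were seen, had 797 and 962 CPM against 455 and 492 CPM (-0.90 ± 0.12, adjusted p = 0.000317). Of 39 nuclear genes of the respiratory chain and ATP synthase, 34 lay below 0 with a median of -0.22. Only the ATP synthase subunits *ATP20* (-0.64) and *ATP15* (-0.48) were called lower, 5.13% of the list beside 1.09% of all genes. The external NADH dehydrogenase gene *NDE2* was higher by 0.59. Of 16 alternative settings or sample sets, *ATP15* lost its call in 5, *ATP20* in 3 and *NDE2* in 2. Without replicate 1 of *rny1*Δ *atg2*Δ, *ATP20*, *ATP15* and *NDE2* were not called (-0.67, -0.44 and 0.43, in that order). *ATP20* was not called without replicate 2 of *rny1*Δ either (-0.42). Among 25 members of the peroxisomal list 3 enzymes were lower, *FOX2* and *POX1* of β-oxidation (-0.82 and -0.69) and the catalase gene *CTA1* (-0.71), with a list median of -0.26. That was 12% of the list, beside 1.09% of all genes lower. *FOX2* had 540 and 881 CPM in *rny1*Δ against 426 and 379 CPM, so its 2 *rny1*Δ libraries differed by more than the nearer one differed from the double mutant. All 3 enzymes lost their call in a fit of 12 libraries that included the vacuole fractions, and *FOX2* also in DESeq2's Wald test. *POX1* and *CTA1* were not called without replicate 2 of *rny1*Δ *atg2*Δ (-0.62 and -0.60). Without replicate 2 of *rny1*Δ the median of the peroxisomal list was -0.05 and that of the respiratory list -0.12.

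The same library stood apart in the 19 mitochondrially encoded mRNAs. All 19 were below 0, with a median of -0.39, and none was called. The list includes open reading frames within introns of *COX1* and *COB*, so its members are not independent. Their summed level was 40627 and 61217 CPM in *rny1*Δ and 38971 and 41545 CPM in *rny1*Δ *atg2*Δ, so replicate 2 of *rny1*Δ stood above the other 3 libraries, which were alike. Within *rny1*Δ the median log2 of replicate 2 over replicate 1 was 0.84, against 0.09 in the double mutant. Without that library the median strain difference was -0.01 with 0 called, and without replicate 1 of *rny1*Δ it was -0.77 with 14 called lower. *COX1*, a cytochrome oxidase subunit singled out after its values were seen, was at 3329 and 4692 CPM against 3284 and 3348 CPM. Nuclear genes of the mitochondrial ribosome had a median of 0.08, with 0 of 67 called beside 3.4% of all genes.

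Carbon metabolism apart from respiration was mixed. The lactate and pyruvate permease gene *JEN1* was lower (1506 and 2114 against 1050 and 1056 CPM, -0.79 ± 0.15). Its call was lost without replicate 2 of *rny1*Δ *atg2*Δ (-0.79) and in a fit of 12 libraries that included the vacuole fractions. *SIP4*, an activator of gluconeogenic genes, was higher (14.6 and 14.2 against 29.6 and 26.3 CPM, 0.95 ± 0.14), as was *ADH2*, the alcohol dehydrogenase that consumes ethanol (176 and 149 against 250 and 222 CPM, 0.54 ± 0.12). Of 20 genes of the TCA and glyoxylate cycles, *ICL1*, isocitrate lyase, and *IDP2*, the cytosolic isocitrate dehydrogenase, were higher by 0.57 and 0.60 and none was lower. That was 10% of the list, beside 2.31% of all genes higher. Of 18 glycolytic genes only *PDC6* was called. Without replicate 1 of *rny1*Δ *atg2*Δ, *JEN1*, *ADH2*, *ICL1* and *IDP2* were not called (-0.79, 0.44, 0.47 and 0.47), and without replicate 1 of *rny1*Δ neither were *ICL1* and *IDP2* (0.56 and 0.57).

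Few amino acid and nitrogen genes were called. Of 69 genes of amino acid biosynthesis, *GCN4* itself and the regulator *LYS14* among them, 50 lay below 0 and the median was -0.18. *ASN1*, *HOM2* and *CPA1*, a subunit of carbamoyl phosphate synthetase, were the 3 called lower (-0.75, -0.61 and -0.51) and none was higher. *ASN1* lost its call in 4 of 16 alternative settings or sample sets, *HOM2* in 2 and *CPA1* in 5. Lower calls made up 4.35% of the list, beside 1.09% of all genes. This count rested on single libraries, as it was 0 without replicate 1 of *rny1*Δ and 21 without replicate 2. Among 38 genes under nitrogen catabolite repression, the proline permease gene *PUT4* rose from 278 and 198 to 511 and 413 CPM (0.95 ± 0.15) and the GABA permease gene *UGA4* from 43.9 and 37.8 to 58.6 and 65.6 CPM (0.59 ± 0.12), whereas *PUT1*, proline oxidase, was lower at 345 and 480 against 250 and 255 CPM (-0.71 ± 0.13). Of this list 5.26% were higher and 2.63% lower, beside 2.31% and 1.09% of all genes, and the list median was -0.03. Of 29 genes of sulfur assimilation, *MET28*, a cofactor of the regulator Cbf1-Met4, and the sulfate permease gene *SUL2* were higher by 0.82 and 0.49, and the median was 0.15. That was 6.90% of the list, beside 2.31% of all genes higher. Of 16 alternative settings or sample sets, *MET28* lost its call in 6 and *SUL2* in 7, both in DESeq2's Wald test. Neither was called without replicate 1 of *rny1*Δ *atg2*Δ (0.73 and 0.47), *PUT1* was not called without that library either (-0.70), and *UGA4* was not called without replicate 2 of *rny1*Δ *atg2*Δ (0.52).

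The 9 mRNAs that the study singles out as examples, 8 for vacuolar delivery or its absence and *GCN4* for translation, were read individually. *HOM2*, an enzyme of the threonine and methionine pathway, was the only one called, at 79.4 and 73.4 CPM against 52.4 and 47.9 CPM (-0.61 ± 0.11, adjusted p = 0.00227). Its call was lost without replicate 1 of *rny1*Δ (-0.55) or without replicate 2 of *rny1*Δ *atg2*Δ (-0.54). *ARO2*, chorismate synthase, had 96.2 and 72.8 against 54.2 and 66.5 CPM (-0.50, adjusted p = 0.0278). *GCN4* itself had 995 and 1056 against 713 and 801 CPM (-0.44, adjusted p = 0.0282). *PIG2*, a regulator of glycogen synthesis, had 421 and 481 against 620 and 573 CPM (0.40, adjusted p = 0.0442). None of these 3 reached the threshold with all libraries in. *ARO2* was called without replicate 2 of *rny1*Δ (-0.69) and without replicate 2 of *rny1*Δ *atg2*Δ (-0.64), and *PIG2* without replicate 2 of *rny1*Δ (0.50). *LYS1*, *HIS5*, *ASG1*, *NTH2* and *APL5* differed by -0.23, -0.23, -0.32, -0.12 and 0.07 and were not called.

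Autophagy genes themselves held few calls apart from the deleted one. Of 41 genes of the autophagy core and its selective receptors, *ATG2* was lower and *ATG39*, the receptor for degradation of the nuclear envelope, was higher (119 and 115 against 184 and 161 CPM, 0.56 ± 0.11, adjusted p = 0.00348). The higher call was 2.44% of the list, beside 2.31% of all genes, and was lost without replicate 1 of *rny1*Δ *atg2*Δ. The list median was -0.04. Others were singled out after their values were seen. *ATG8*, the ubiquitin-like protein of the autophagosome, had 205 and 270 against 175 and 186 CPM (-0.40, adjusted p = 0.0578), *ATG1*, the initiating kinase, had 120 and 148 against 139 and 129 CPM, and *ATG9*, the scramblase of the membrane source, had 108 and 141 against 95.8 and 94.6 CPM (-0.39, adjusted p = 0.0593). None of 14 vacuolar hydrolase genes was called and their median was -0.0035. None of 27 retrograde and TORC1 regulators was called, with a median of -0.02. Over all genes 3.4% were called in either direction.

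Calls among growth genes were few, at shares near those of all genes. *RPS28B* was the single call among 136 tested members of the ribosomal protein list, 0.74% lower beside 1.09% of all genes. The list median was -0.11 with 101 members below 0, against a median of 0.12 in growing cells. For 57 of its members both double mutant libraries lay below both of *rny1*Δ, as for 24.2% of all genes. That list also holds *RPP1*, which is not a ribosomal protein gene. *DBP2*, an RNA helicase, was the single call among 86 ribosome biogenesis genes (90.3 and 70.7 against 42.3 and 55.9 CPM, -0.73 ± 0.14), whose median was -0.12. That was 1.16% of the list, beside 1.09% of all genes lower. *DBP2* was not called without replicate 1 of either strain (-0.54 in both cases). None was called among 35 proteasome genes (median -0.10), 31 ergosterol genes (0.04), 10 histone genes (-0.19) or 23 cyclins and cell cycle regulators (0.05). Over all genes 3.4% were called in either direction. Of 33 genes of daughter-cell separation and the cell wall only *CWP1*, a wall mannoprotein, was called (139 and 99.6 against 241 and 203 CPM, 0.89 ± 0.14). Of 21 genes of the unfolded protein response and the endoplasmic reticulum only *INO1* was called. These single calls were 3.03% and 4.76% of their lists, beside 2.31% of all genes higher. Among 48 stress genes under Msn2 and Msn4, *GND2*, of the pentose phosphate pathway, was higher (188 and 213 against 388 and 303 CPM, 0.78 ± 0.13), with *GPD1*, *GPP2* and the aldose reductase gene *GRE3* (0.52), and none was lower. These were 8.33% of the list, beside 2.31% of all genes higher. The call of *GND2* was lost without replicate 1 of *rny1*Δ (0.70) and that of *GRE3* without replicate 2 of *rny1*Δ *atg2*Δ (0.59). The list median was 0.05, and without replicate 1 of *rny1*Δ *atg2*Δ none of the 4 was called.

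**Figure D4:**
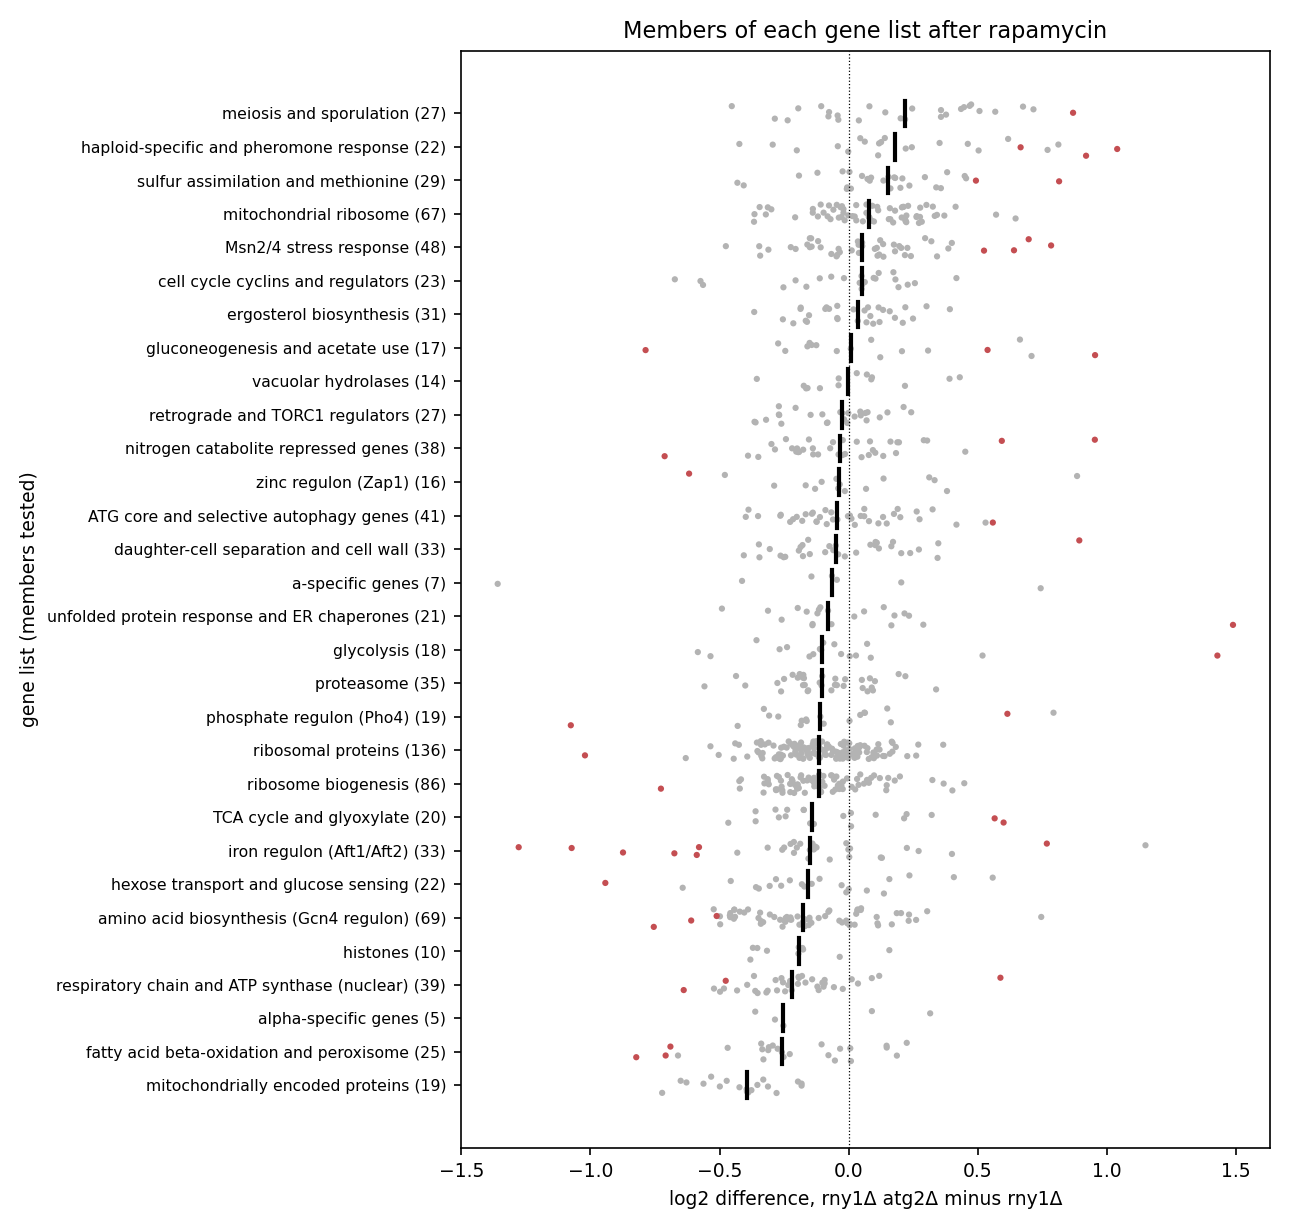
Log2 difference between strains after rapamycin (horizontal) of each tested member of 30 gene lists (vertical, number tested in brackets), ordered by median. Red points are called members, grey points are not called, and black bars are list medians, which run from -0.39 for mitochondrially encoded mRNAs to 0.22 for meiosis and sporulation. *ATG2* is left out of the plot.

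The same strains were then compared without rapamycin, to see whether the differences were already there in growing cells. For the 132 higher mRNAs the growing log2 difference had a median of -0.02 and the same sign in 57, and for the 62 lower mRNAs a median of -0.03 and the same sign in 36. *INO1*, for example, had 8.17 and 9.32 CPM in growing *rny1*Δ and *rny1*Δ *atg2*Δ, and *STL1* had 5.90 and 5.23 CPM. *SIT1* had 63.8 and 65.3 CPM and *PHO89* 114 and 129 CPM. These 4 differed between the growing strains by 0.19, -0.17, 0.03 and 0.17 on the log2 scale, with 1 library per strain and hence no replicate error of their own.

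Whether the strain difference changed with rapamycin was tested by an interaction in a fit of all 6 total-lysate libraries, in which the spread comes from the rapamycin replicates and the growing libraries are assumed to vary like them. Of 5725 genes, 1 (0.0175%) had a difference at least 2-fold higher after rapamycin than in growth and 3 (0.0524%) one at least 2-fold lower, at an adjusted p-value under 0.01. *COS8* was lower in the growing double mutant (53.7 and 35.6 CPM) and higher after rapamycin, an interaction of 1.98 ± 0.20 (SE, adjusted p = 3.04e-05). *BSC1* was higher in the growing double mutant (22.4 and 31.4 CPM) and lower after rapamycin, -2.61 ± 0.37 (adjusted p = 0.00166). *RPS28B* and *YLR264C-A* behaved as a pair, at 149 and 219 CPM and at 135 and 192 CPM in growing cells, with interactions of -1.57 each. For these 4 mRNAs the strain difference had opposite signs in growth and after rapamycin. For *INO1*, *STL1*, *SIT1* and *PHO89* the interaction was 1.30, 1.41, -1.31 and -1.24, each over 2-fold, with adjusted p-values of 0.0387, 0.0234, 0.0220 and 0.0464 that did not pass 0.01. Of the called mRNAs, 119 of the 132 higher and 52 of the 62 lower had an unadjusted interaction p-value under 0.05, which rests in part on the rapamycin libraries by which they were called. At any fold 633 genes had an unadjusted p-value under 0.05 and 29 an adjusted one under 0.05.

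**Figure D5:**
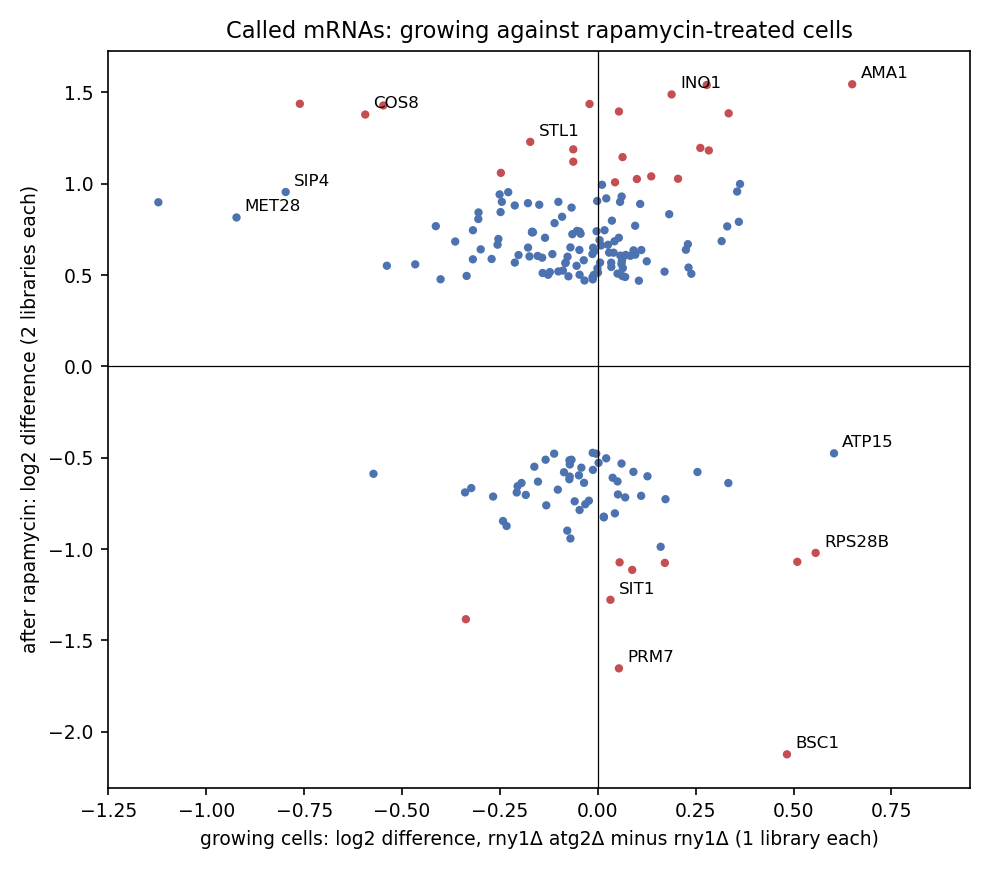
Log2 difference between strains after rapamycin (vertical, 2 libraries each) against that in growing cells (horizontal, 1 library each) for the called mRNAs other than *ATG2*. Red points are called at 2-fold or more and blue points below it. Most points lie near 0 on the horizontal axis, while *COS8* lies upper left and *BSC1* and *RPS28B* lie lower right.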

How the data were processed

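RNA was extracted from total lysates of rapamycin-treated and growing cells, depleted of rRNA, and sequenced as single-end reads of TruSeq libraries. The authors removed rRNA reads with Bowtie2 2.1.0, aligned the rest to S288C (sacCer3) with TopHat2 2.0.9 and counted reads per gene with HTSeq 0.6.1, and the deposited values are these counts, not normalized. Of uniquely aligned reads, 47.5 to 47.7% fell on no gene and stayed out of library sizes. Files list 6696 genes, of which 6008 matched the R64 annotation by systematic name (6005 of them protein-coding).

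Protein-coding genes entered the test when their 4 libraries together gave 10 counts or more. They were tested with edgeR 4.0.16 (R 4.3.3): TMM scaling, quasi-likelihood fit, Benjamini-Hochberg adjustment. Printed CPM are TMM-scaled over the 6 total-lysate libraries. Gene lists are given by counts and medians, without set tests. The members and lists were chosen with earlier results of these data known. Named were the deleted genes and their neighbours, the study's examples, and up to 4 called members per list. Also named were up to 15 of the largest differences per direction among genes called at 2-fold. These needed no overlap and a mean of at least 5 CPM in the higher strain only. Each result was recomputed with DESeq2 1.42.0, other scalings, filters and sample sets, a replicate block and without each replicate. Scripts were tested on simulated data. Vacuole fractions entered only the fit of 12 libraries, wild-type RNA-Seq only the check of *RNY1*, and ribosome footprints were not used here.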

Additional observations from a re-analysis of the deposited data

Results flagged for a closer look

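For 4 mRNAs there was a strain difference after rapamycin that differed from that in growing cells by the interaction test of edgeR at an adjusted p-value under 0.01 and 2-fold or more. The difference after rapamycin minus that in growth was 1.98 for *COS8*, -2.61 for *BSC1*, -1.57 for *YLR264C-A* and -1.57 for *RPS28B*. *COS8* shares near-identical sequence with other COS genes and *RPS28B* with *RPS28A*, and what part multiply aligned reads have in their values was not tested. Without replicate 2 of *rny1*Δ the interaction was -1.47 for *YLR264C-A* and -1.54 for *RPS28B*, and both were no longer called.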

How the results depend on the processing

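Of 54 named mRNAs called as different, none changed direction under 16 alternatives, and 0 to 6 lost their call under each setting that kept all 4 libraries. Leaving out 1 library lost 2 to 22 of these calls; the lone library left in an arm is then assumed to vary like the other strain. Leaving out each replicate in turn gave 16 to 33 mRNAs higher and 5 to 20 lower at 2-fold, and 46 to 209 higher and 32 to 173 lower at any fold. An adjusted p-value under 0.05 gave 273 higher and 166 lower at any fold. DESeq2's Wald test called 27 mRNAs at 2-fold, all among the 30. Library totals without TMM scaling moved the median of all genes to 0.04.

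The replicate differences of the 2 strains correlated at -0.18 across genes. This value cannot show whether replicate numbers pair the libraries, and the main fit treated them as unpaired. With a replicate block 31 mRNAs were called at 2-fold, which include all 30, and 224 at any fold. The crossed pairing, chosen after seeing the data, gave 331 higher and 262 lower at any fold.

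For the interaction with growth, leave-one-out counts ran from 1 to 24 higher and 2 to 34 lower. They were 6 and 6 with DESeq2's Wald test, 11 and 14 at an adjusted p-value under 0.05 (added after seeing the data), 9 and 13 with the replicate block and 17 and 20 with the crossed pairing. The cause of these shifts was not tested. Among uncalled genes, leaving out each library in turn took the log2 difference across 0, from -0.27 to 0.0014 for *SLA2*, from -0.24 to 0.023 for *NTH2* and from -0.0059 to 0.32 for *ZWF1*. The median of mitochondrially encoded mRNAs has no value when those genes are left out.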

Other observations

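Further called mRNAs lay outside the gene lists and were chosen after their values were seen. *SNZ1* and *SNO1*, neighbouring genes for vitamin B6 synthesis, were lower together in *rny1*Δ *atg2*Δ, at 154 and 154 against 91.5 and 93.8 CPM and at 27.0 and 27.8 against 17.3 and 18.1 CPM (log2 differences -0.74 and -0.64). *ARO9* and *ARO10*, which break down aromatic amino acids, were lower by -0.51 and -0.60. *SSA2*, a cytosolic Hsp70, was lower at 803 and 603 against 410 and 502 CPM (-0.63), its J-protein partner *SIS1* by -0.50 and its nucleotide exchange factor *FES1* by -0.54, and other chaperone genes were not examined as a group.

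Among the higher mRNAs, *CRF1*, a corepressor of ribosomal protein genes under TORC1, had 44.9 and 46.8 CPM against 86.1 and 77.5 CPM (0.83 ± 0.11, SE). *GRE2*, a methylglyoxal reductase, had 454 and 399 CPM against 729 and 665 CPM (0.70 ± 0.12).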
